A study of Mus musculus with 34 samples.

Results

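The 35 genes described here encode splicing factors of the SR and hnRNP families: 15 SR and SR-related proteins, 17 hnRNP proteins, and 3 RNA-binding proteins of paraspeckles and the nuclear matrix (Sfpq, Nono and Matr3). They were chosen by name, out of 21631 genes that code for proteins (autosomes and X), with no rule on measured values but with earlier results of these data known. The measurements come from C2C12, an established line of mouse myoblasts, profiled by multi-target chromatin integration labelling (mtChIL-seq), in which a DNA probe is inserted by a transposase beside each bound antibody and then amplified and sequenced. Cells were stained with a pair of antibodies at once (dual) or with 1 antibody alone (single). The dual groups of 3 libraries each were H3K4me3 with CTCF in 10000 cells and in 1000 cells, and Pol2S2P (RNA polymerase II phosphorylated at serine 2 of its repeated tail) with H3K27ac in 1000 cells and in 100 cells. The single groups of 2 libraries each were CTCF in 10000 cells and Pol2S2P in 1000 cells. All cells were of this 1 line, no group received a treatment according to the labels, and the labels used here give no differentiation state.

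SR proteins carry stretches rich in arginine and serine, bind enhancer sequences in exons and recruit the spliceosome, whereas hnRNP proteins coat the nascent transcript and often repress nearby exons. Both families are made in nearly all cell types, and many of their genes control their own output by splicing in exons that send the transcript to decay. H3K4me3 marks the starts of active genes, H3K27ac marks active starts and enhancers, Pol2S2P is the form of the polymerase found in gene bodies and towards gene ends, and CTCF is a DNA-binding protein of insulators that also occupies many promoters.

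Each library's value for a gene was its count per 1 kb bin divided by the library's mean count per bin over the autosomes and X, called the level (in multiples of the genome mean), so that genes of different length can be set side by side. The start of a gene is the set of bins within 1 kb of its listed starts of transcription, the far end is the set within 1 kb of the other end of its span, and the interior is made of bins over 2 kb inside both span ends of genes of at least 5 kb. A listed start was found for 33 of the 35 genes. For Hnrnpll and Matr3 the start is instead the span end with more counts of a target outside the comparison, so it may be the downstream end. All 4357 coding genes without a listed start were treated in this way, with ties left out. For levels and for shares of far ends over starts, that end was always chosen by H3K27ac counts. By construction this raises H3K27ac at the starts of these genes. Srsf2, Srsf5 and Srsf6 are too short to have an interior, which leaves 32 genes with one. Interiors are counted from span ends, so they can hold start bins or span upstream of a listed start. Hnrnpf, Hnrnph1, Srrm2, Srsf11 and Hnrnpl are examples. Start bins of 13 of the 35 genes overlap another coding gene, and those of 10 cover its start (Hnrnpa1 with Cbx5, Srsf2 with Mfsd11, Hnrnpk with Rmi1 and Hnrnpdl with Enoph1 among them), and far-end bins of 13 overlap another coding gene, so signal there cannot be assigned to 1 gene alone.

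Library totals ran from 719766 counts (H3K4me3, 1000 cells) to 6653298 (CTCF, single staining). At starts in H3K4me3 libraries of 10000 cells, 7 myoblast markers had a median level of 17.8 (1.76 to 86.4), against 0.615 for 7 markers of differentiated fibres, which all stayed below 1 (0.148 to 0.906). Median levels of markers of blood, liver, neurons and epithelium were 0.630, 0.103, 0.313 and 1.06. The myoblast regulator Myf5 had more H3K4me3 than CTCF at its start (log2 fold change 3.11 ± 0.17 SE), whereas its relative Myod1, also a defining myoblast gene, had less (-2.39 ± 0.37). Since the labels do not call the replicates separate cultures, the p-values speak for the spread among these libraries alone, and that spread may be technical.

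The promoters of the 3 genes with the highest H3K4me3 level at the start (Hnrnpa1, Srsf3 and Hnrnpu) and of the gene with the lowest (Hnrnpm) are shown so that the ends of the range can be compared by eye. Each runs from 250 bases before to 50 bases after a listed start, 5′ to 3′ on the gene's own strand, as given by RefSeq on GRCm38.p6. Capitals mark the letters CCGGAAG (the core of ETS sites), GCGCATG (part of the NRF1 motif), TGACGTC (most of a cAMP response element), CCAAT (the CCAAT box), TATAAA (a form of TATA box) and ATGGCGG (part of the YY1 motif), searched on both strands. The sequences lie at chr15:103240147-103240446 on the plus strand (Hnrnpa1), chr17:29032410-29032709 on the plus strand (Srsf3), chr1:178337766-178338065 on the minus strand (Hnrnpu) and chr17:33685409-33685708 on the minus strand (Hnrnpm).
Hnrnpa1: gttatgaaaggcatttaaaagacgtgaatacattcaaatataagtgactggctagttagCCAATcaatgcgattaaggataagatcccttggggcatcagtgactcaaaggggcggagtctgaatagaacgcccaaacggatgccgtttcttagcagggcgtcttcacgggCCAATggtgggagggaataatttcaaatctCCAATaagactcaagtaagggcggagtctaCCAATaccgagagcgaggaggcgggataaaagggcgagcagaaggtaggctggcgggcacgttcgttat
Srsf3: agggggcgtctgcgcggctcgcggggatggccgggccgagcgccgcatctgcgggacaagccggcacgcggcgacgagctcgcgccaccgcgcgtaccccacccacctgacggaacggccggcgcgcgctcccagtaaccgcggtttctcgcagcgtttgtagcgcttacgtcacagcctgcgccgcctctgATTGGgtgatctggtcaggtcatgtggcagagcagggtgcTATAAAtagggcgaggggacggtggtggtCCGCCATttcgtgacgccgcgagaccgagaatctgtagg
Hnrnpu: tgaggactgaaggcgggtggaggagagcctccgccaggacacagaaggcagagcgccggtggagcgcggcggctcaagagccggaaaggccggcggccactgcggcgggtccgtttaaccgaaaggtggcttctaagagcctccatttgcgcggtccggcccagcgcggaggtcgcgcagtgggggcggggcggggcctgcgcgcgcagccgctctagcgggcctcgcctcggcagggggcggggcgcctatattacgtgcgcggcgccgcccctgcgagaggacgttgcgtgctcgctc
Hnrnpm: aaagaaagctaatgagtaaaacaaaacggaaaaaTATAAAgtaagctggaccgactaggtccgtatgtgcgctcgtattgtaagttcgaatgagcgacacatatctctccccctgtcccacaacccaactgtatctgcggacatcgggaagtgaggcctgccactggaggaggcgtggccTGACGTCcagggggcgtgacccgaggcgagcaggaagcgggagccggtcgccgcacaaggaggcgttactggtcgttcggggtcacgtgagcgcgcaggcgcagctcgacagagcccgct
Hnrnpa1 held 4 matches, all to CCAAT, at 48.3% GC and with 16 CpG dinucleotides. Srsf3 held 3, to the CCAAT box (as ATTGG), the TATA box and ATGGCGG (as CCGCCAT), at 68.3% GC with 42 CpG. Hnrnpu held none of these letters at 72.7% GC with 41 CpG, and Hnrnpm held 2, to TATAAA and TGACGTC, at 58.0% GC with 27 CpG.

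The 33 genes with listed starts have 46 promoter entries, since 7 of them list several starts and some of these overlap. Their median GC content was 65.7% and their median CpG count 28, against 56.7% and 13 over 21045 promoters of coding genes. ATGGCGG was found in 19.6% of the 46 promoters and in 5.29% of all promoters. CCGGAAG was found in 21.7% and 11.7%, GCGCATG in 10.9% and 4.84%, TGACGTC in 8.70% and 3.88%. CCAAT was found in 23 of the 46 promoters and in 38.5% of all. TATAAA was the exception among these letters, in 8.70% of the 46 promoters and 12.7% of all promoters. These matches describe the letters in the windows and are not sites of binding.

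At their starts, the splicing factor genes had a median H3K4me3 level of 41.3 in 10000 cells (lowest 18.2, highest 96.7), against 2.68 over 21276 coding genes. The level is an average over the cells of a library, so fewer marked cells and less of the mark in each cell cannot be told apart. All 35 lay above the median of coding genes and 33 lay in the upper quartile. In 1000 cells the medians were 40.2 for the splicing factor genes and 2.42 for all. Median H3K4me3 levels were 37.9 for the 15 SR genes, 46.3 for the 17 hnRNP genes and 32.7 for Sfpq, Nono and Matr3. For comparison, 40 core spliceosome genes had a median of 27.8, 9 kinase genes that act on SR proteins 25.5, 10 splicing regulators of muscle 9.70 and 17 splicing regulators of other tissues 0.775.

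Hnrnpa1, whose protein binds splicing silencers and opposes SR proteins, had the highest start level of H3K4me3, at 102, 87.6 and 100.5 in the 3 libraries of 10000 cells (96.7 ± 7.98, SD, n = 3). Srsf3, the smallest SR protein, which also serves in export of mRNA, had 79.2, 64.0 and 67.8 (70.3 ± 7.93). Hnrnpu, which encodes a scaffold protein that binds RNA and chromatin, had 67.5, 57.8 and 68.4 (64.6 ± 5.88). Hnrnpa1 stood above both in each library, while the ranges of Srsf3 and Hnrnpu overlapped, so their order is not resolved.

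The lowest H3K4me3 levels were those of Srsf5, Hnrnph2 and Hnrnpm. Srsf5, a shuttling SR protein, had 27.9, 21.8 and 24.8 (24.8 ± 3.04, SD, n = 3). Hnrnph2, the X-linked relative of Hnrnph1 that binds runs of G, had 22.3, 15.1 and 18.8 (18.7 ± 3.59). Hnrnpm, which binds GU-rich RNA, had 14.9, 20.4 and 19.4 (18.2 ± 2.96). The ranges of Hnrnph2 and Hnrnpm overlapped, and even the lowest of these library values was far above the median of all coding genes.

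CTCF at the same starts had a median level of 6.30 in the dual libraries of 10000 cells, against 2.28 over coding genes. Hnrnpa1 was highest here too, at 18.1, 18.6 and 17.5 (SD 0.553, n = 3). Hnrnpdl, a relative of the mRNA decay factor Hnrnpd, followed with 14.2, 13.6 and 12.9 (13.6 ± 0.618), and Hnrnph3 had 9.39, 13.6 and 11.9 (11.6 ± 2.09). Hnrnpa1 lay above Hnrnpdl in every library, and the ranges of Hnrnpdl and Hnrnph3 overlapped. All 3 share their start bins with another coding gene (Cbx5, Enoph1 and Pbld2).

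The lowest CTCF start levels belonged to Srsf9, Hnrnpm and Hnrnph2. Srsf9 had 3.19, 3.51 and 3.24 (3.31 ± 0.176, SD, n = 3), Hnrnpm had 1.24, 2.85 and 5.39 (3.16 ± 2.09), and Hnrnph2 had 2.30, 2.18 and 2.59 (2.36 ± 0.211). The spread of Hnrnpm covered the levels of the other two.

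**Figure D1:**
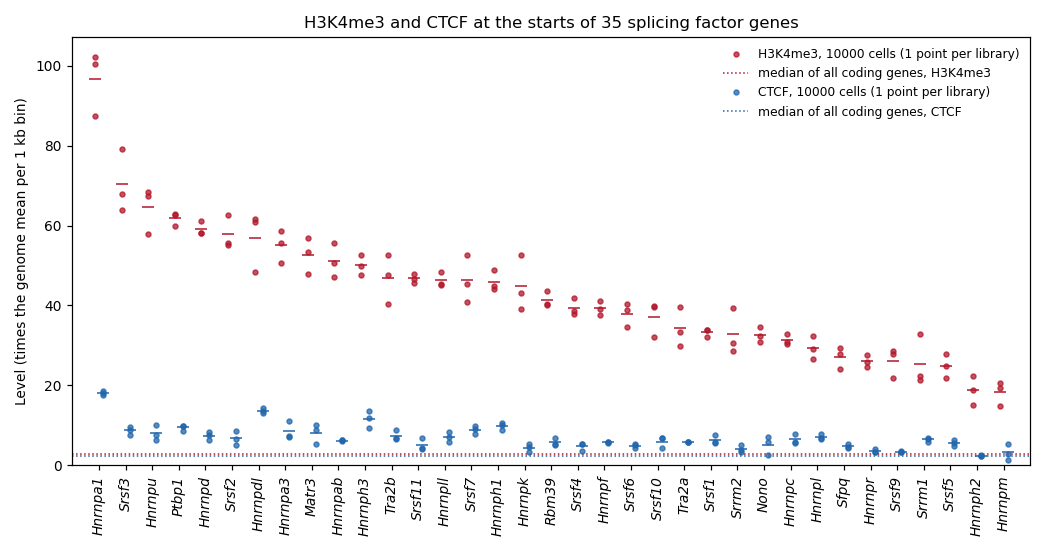
Level at the gene start in multiples of the genome mean (linear y axis) for each of the 35 genes, ordered by mean H3K4me3 level, with 1 point per library and a bar at the mean for H3K4me3 (left) and CTCF (right) in dual libraries of 10000 cells. Dotted lines give the medians of all coding genes (2.68 for H3K4me3 and 2.28 for CTCF). In every gene the 3 H3K4me3 points lie above the 3 CTCF points, with Hnrnpa1 highest in both.

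H3K4me3 exceeded CTCF at the starts of 35 of 35 splicing factor genes in 10000 cells, with no overlap between the 3 libraries of each target (edgeR's quasi-likelihood test, adjusted p under 0.05 over 10952 genes). This share has to be read against the background, since 85.0% of all genes tested were called higher and 5.76% lower. The median log2 fold change was 2.70 (1.96 to 3.35) for the splicing factor genes and 1.93 over all genes tested, and each of the 35 values lay above this second median. The same held for SR genes (median 2.84), hnRNP genes (2.70) and Sfpq, Nono and Matr3 (2.62). When libraries were scaled so that the typical gene start was equal (TMM), which moved the median over all genes to 0.02, 29 of the 35 were called higher against 30.6% of all genes. DESeq2 called 26 against 23.3%, and all 35 values stayed positive by either scaling.

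Hnrnpk, which binds C-rich RNA and DNA, had H3K4me3 levels of 39.0, 43.1 and 52.7, against CTCF levels of 5.32, 3.35 and 4.53, the largest difference (log2 fold change 3.35 ± 0.18 SE, adjusted p = 1.1204e-54 by edgeR's quasi-likelihood test). Srsf11, an SR protein found with the U2 auxiliary factor, had H3K4me3 levels of 46.7, 47.8 and 45.7, against CTCF levels of 3.99, 6.86 and 4.31 (3.19 ± 0.13). In both genes the lowest H3K4me3 library was several times the highest CTCF library.

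Srsf2, which recognises enhancers in exons, had H3K4me3 levels of 62.5, 55.1 and 55.7, against CTCF levels of 6.56, 8.54 and 4.96 (log2 fold change 3.07 ± 0.15 SE). Srsf4, a large SR protein, had H3K4me3 levels of 37.8, 38.7 and 41.8, against CTCF levels of 3.54, 5.19 and 5.39 (3.06 ± 0.18). Hnrnpab had H3K4me3 levels of 47.0, 50.7 and 55.7, against CTCF levels of 6.20, 6.19 and 6.04 (3.05 ± 0.16). At the other end of the range was Srrm1, which encodes a coactivator of splicing related to SR proteins, with H3K4me3 levels of 32.8, 22.2 and 21.2, against CTCF levels of 5.85, 6.53 and 6.90 (1.96 ± 0.19, adjusted p = 2.68193e-21 by edgeR's quasi-likelihood test). Even there, no CTCF library reached the lowest H3K4me3 library.

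In 1000 cells, H3K4me3 again exceeded CTCF at 35 of 35 starts, beside 87.4% called higher and 3.74% lower among 9055 genes. The median log2 fold change was 3.09 (2.08 to 3.70) for the splicing factor genes and 2.12 over all genes tested. Hnrnpu had H3K4me3 levels of 79.2, 60.6 and 68.3, against CTCF levels of 7.61, 5.38 and 5.17 (log2 fold change 3.52 ± 0.21 SE). Srsf9, a short SR protein, had H3K4me3 levels of 32.9, 29.3 and 26.7, against CTCF levels of 2.96, 1.61 and 2.30 (3.70 ± 0.32, adjusted p = 1.69675e-19 by edgeR's quasi-likelihood test). Hnrnpk had H3K4me3 levels of 32.9, 56.6 and 42.5, against CTCF levels of 4.23, 4.03 and 3.73 (3.499 ± 0.256). In these genes every H3K4me3 library exceeded every CTCF library many times over. Hnrnpa3, a close relative of Hnrnpa1, had H3K4me3 levels of 63.4, 40.6 and 60.8, against CTCF levels of 8.46, 3.23 and 4.31 (3.42 ± 0.24). Srsf11 had H3K4me3 levels of 44.5, 38.6 and 42.5, against CTCF levels of 4.44, 3.76 and 3.59 (3.41 ± 0.19). These starts did not overlap between targets either. The smallest difference was that of Hnrnph3, with H3K4me3 levels of 40.2, 44.6 and 34.98, against CTCF levels of 12.7, 9.41 and 7.18 (2.08 ± 0.22), whose sign turned with TMM and DESeq2 scaling, as that of Hnrnpc did with DESeq2. TMM scaling called 30 higher against 21.9% of all genes, and DESeq2 called 20 against 13.0%.

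The excess of H3K4me3 over CTCF did not pass the test of a difference between 10000 and 1000 cells at any of the 35 starts (interaction term in edgeR's quasi-likelihood test, 0 called, 5 at an unadjusted p under 0.05, 0 with TMM scaling). The background was 0.00946% higher and 0.0% lower of 10573 genes. Of the 35 interaction values, 5 were positive and 30 negative (a smaller excess in 10000 cells), with and without TMM. H3K4me3 itself, in 10000 over 1000 cells, changed at 0 of 35 starts by edgeR's quasi-likelihood test, with 0 also by TMM (0.386% of all genes higher, 0.397% lower) and by DESeq2 (0.0% and 0.0214%). At an unadjusted p under 0.05 there were 0 by edgeR's test, 8 with TMM and 2 with DESeq2. Log2 fold changes ran from -0.28 to 0.31 with a median of 0.03, while 4.43% of 9328 genes were called higher, 0.0536% lower, and the median over all genes was 0.20. Of the 35 values, 21 were positive and 14 negative. With TMM, which moved the median over all genes to -0.01, 16 turned sign, which left 5 positive and 30 negative at a median of -0.19, and DESeq2 gave the same split at a median of -0.18.

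H3K4me3 extended beyond the start bins in a majority of the splicing factor genes. With bins counted as marked from a level of 10, 32 of 33 genes with a listed start held a marked stretch at the first one. The median length was 5 kb, against 3 kb for the 7777 marked coding genes. The exception was Hnrnpf, which was marked at later listed starts, as described below. Stretches of at least 5 kb were found at 17 of the 32 (53.1%) and at 12.6% of the marked coding genes. The longest covered 10 kb at Hnrnpu, and 9 kb each at Srsf2 and at Tra2b, whose protein binds GA-rich enhancers in exons. Srsf2 spans 3.8 kb and shares start bins with Mfsd11, so its stretch reaches beyond the gene. Stretches were not split between genes that share starts. The highest bin lay downstream of the listed start in 26 of the 32, against 66.6% of marked coding genes.

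**Figure D2:**
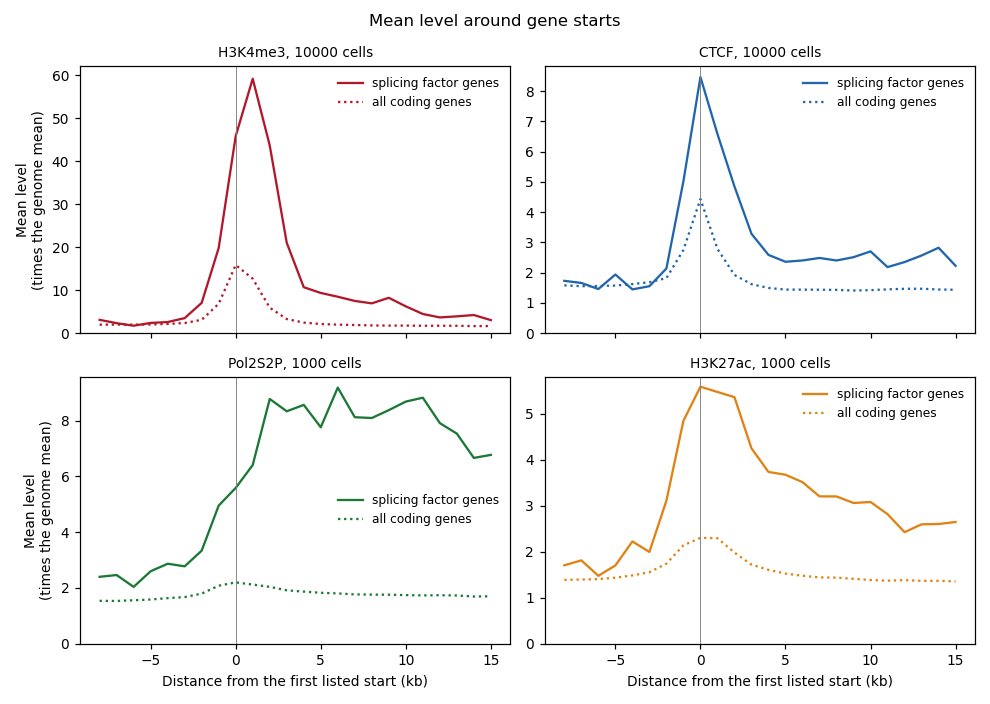
Mean level in multiples of the genome mean (y axis, linear, a separate scale in each panel) by distance in kb from the first listed start (x axis, positive downstream), for 33 splicing factor genes (solid lines) and all coding genes with a listed start (dotted lines), for H3K4me3, CTCF, Pol2S2P and H3K27ac in dual libraries. H3K4me3 of the splicing factor genes peaked at 59.2 in the bin 1 kb downstream, where all genes averaged 12.7. Pol2S2P of the splicing factor genes was 5.59 at the start and 8.77 at 2 kb downstream.

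Where a gene lists several starts, H3K4me3 was not always at the first. Hnrnpf, whose protein binds runs of G, lists 4 starts, and its first had H3K4me3 levels of 1.86, 3.11 and 3.63 in 10000 cells (2.87 ± 0.912, SD, n = 3). The third, 7.46 kb downstream, had 87.3, 80.0 and 85.3 (84.2 ± 3.77), with 61.9 ± 4.43 at the second and 30.0 ± 1.88 at the fourth. The first start was low and the third high in every library, with no overlap. Start bins of Hnrnpf also cover a listed start of the coding gene 4933440N22Rik, so signal there cannot be assigned to Hnrnpf alone. Srsf11 had similar means at its 2 starts 4.86 kb apart in 10000 cells, 46.9 ± 7.26 and 46.6 ± 7.94. In 1000 cells its first start was higher, at 47.5, 46.0 and 52.5 against 41.4, 31.3 and 32.5 at the second. The promoters at the first and the third start of Hnrnpf are shown because their levels differ most, a choice made after the values were seen, with capitals for every CpG dinucleotide. They lie at chr6:117900090-117900389 and chr6:117907554-117907853 on the plus strand (RefSeq, GRCm38.p6).
Hnrnpf, the first start: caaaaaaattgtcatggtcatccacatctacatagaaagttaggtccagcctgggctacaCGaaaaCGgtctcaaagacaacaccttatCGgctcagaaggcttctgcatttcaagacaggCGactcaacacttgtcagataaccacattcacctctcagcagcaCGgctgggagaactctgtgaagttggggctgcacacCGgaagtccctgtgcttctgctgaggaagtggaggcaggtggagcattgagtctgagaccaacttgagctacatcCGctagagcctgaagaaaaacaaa
Hnrnpf, the third start: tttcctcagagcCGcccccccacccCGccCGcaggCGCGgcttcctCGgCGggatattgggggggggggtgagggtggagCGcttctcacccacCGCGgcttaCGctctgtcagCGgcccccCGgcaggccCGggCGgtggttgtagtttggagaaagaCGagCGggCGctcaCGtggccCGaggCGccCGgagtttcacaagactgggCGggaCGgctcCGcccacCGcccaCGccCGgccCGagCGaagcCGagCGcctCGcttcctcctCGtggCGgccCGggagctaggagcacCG
The first held 7 CpG at 49.3% GC, the lowest CpG count of the 46 promoters, and the third held 37 CpG at 73.7% GC.

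Inside the genes, Pol2S2P had a median level of 7.07 in the dual libraries of 1000 cells over 32 splicing factor genes (3.00 to 20.5), against 1.45 over coding genes, and all 32 lay in the upper quartile of coding genes. H3K27ac in the same cells had 2.82 against 1.15. In 100 cells the Pol2S2P medians were 7.31 for the splicing factor genes and 1.42 for all genes, and the H3K27ac medians were 2.61 and 1.11. The highest interior levels of Pol2S2P in 1000 cells were 19.9, 20.8 and 21.0 at Hnrnpa1 (20.5 ± 0.602, SD, n = 3), 17.0, 20.8 and 21.7 at Hnrnpab (19.8 ± 2.54) and 16.6, 19.7 and 20.4 at Hnrnpu (18.9 ± 2.02). The ranges of these 3 genes overlapped. The lowest were 3.49, 3.304 and 2.87 at Hnrnpr (3.22 ± 0.316), 4.33, 4.16 and 0.791 at Hnrnph2 (3.10 ± 2.00, from 12 counts in all) and 3.36, 2.86 and 2.78 at Srsf4 (3.00 ± 0.311), which overlapped likewise. Counted only downstream of every listed start, mean Pol2S2P levels in 1000 cells were 17.9 at Hnrnpf and 14.4 at Hnrnph1. Over the interior as defined they were 11.5 and 12.9. Srrm2 and Srsf11 had 5.99 and 5.55 downstream of every listed start, against 4.40 and 5.58. The interiors of Hnrnpa1 and Hnrnpab hold only 2 bins each, against 13 for Hnrnpu. Downstream of its listed start, the interior of Hnrnpa1 also had a mean H3K4me3 level of 79.7 in 10000 cells.

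**Figure D3:**
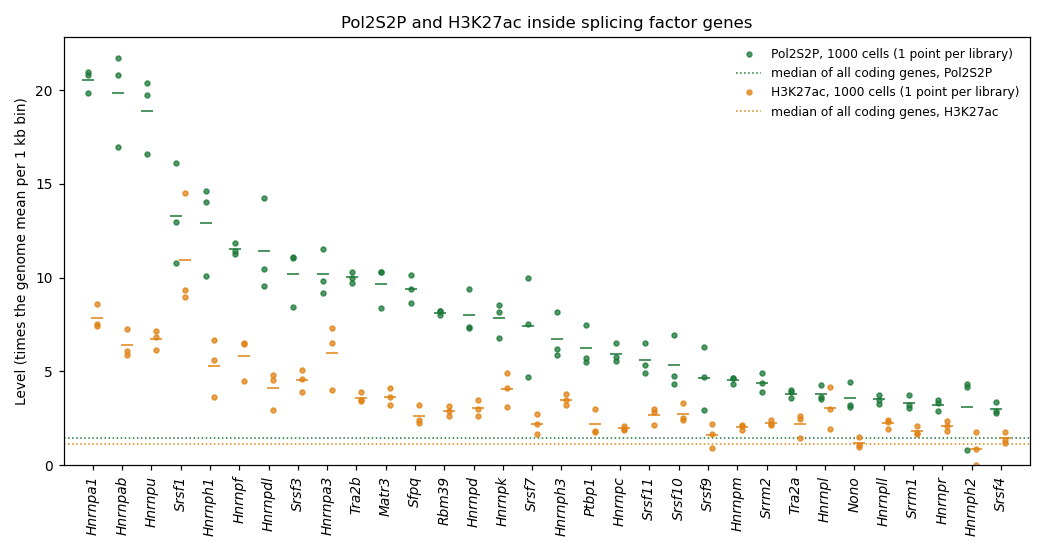
Level inside the gene in multiples of the genome mean (linear y axis) for the 32 genes with an interior, ordered by mean Pol2S2P level, with 1 point per library and a bar at the mean for Pol2S2P (left) and H3K27ac (right) in dual libraries of 1000 cells. Dotted lines give the medians of all coding genes (1.45 and 1.15). The 3 points of Pol2S2P lie above those of H3K27ac in most genes, and the points overlap in Srsf1, Hnrnpl and Hnrnph2, of which Hnrnph2 fell below the filter on low counts.

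Pol2S2P exceeded H3K27ac inside 28 of the 30 splicing factor genes that passed the filter on low counts in 1000 cells, and was lower in 0 (edgeR's quasi-likelihood test, adjusted p under 0.05). Srsf9 and Hnrnph2 fell below the filter. An interior could pass the filter through its Pol2S2P counts alone, so the count leaves out interiors low in both targets. Srsf7, called higher, held 56 Pol2S2P counts and 15 H3K27ac counts in all. Over 12662 genes tested, 38.1% were called higher and 9.92% lower. The median log2 fold change was 1.16 (0.28 to 1.84) for the splicing factor genes and 0.31 over all genes tested. By family, 10 of 11 SR genes, 15 of 16 hnRNP genes and 3 of 3 of Sfpq, Nono and Matr3 were called higher. TMM scaling, which moved the median over all genes to 0.02, called 27 higher against 19.5% of all genes, and DESeq2 called 21 against 13.1%.

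Sfpq, which encodes a paraspeckle protein that binds the polymerase tail and long introns, had Pol2S2P levels of 8.66, 10.1 and 9.39, against H3K27ac levels of 2.25, 3.21 and 2.43, the largest difference among genes with at least 20 counts in every Pol2S2P library (log2 fold change 1.84 ± 0.12 SE, adjusted p = 2.7159e-39 by edgeR's quasi-likelihood test). Nono, its partner in paraspeckles, had Pol2S2P levels of 3.08, 3.22 and 4.43, against H3K27ac levels of 1.06, 0.988 and 1.51 (1.59 ± 0.23). In both genes every Pol2S2P library lay above every H3K27ac library, although the Pol2S2P level of Sfpq was more than that of Nono in each.

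Hnrnpab had Pol2S2P levels of 17.0, 20.8 and 21.7, against H3K27ac levels of 5.87, 6.10 and 7.24 (log2 fold change 1.62 ± 0.26 SE, adjusted p = 1.6084e-08 by edgeR's quasi-likelihood test). Hnrnpc, which binds runs of U on nascent transcripts, had Pol2S2P levels of 5.77, 6.50 and 5.57, against H3K27ac levels of 1.90, 2.08 and 1.88 (1.60 ± 0.14). Rbm39, a relative of the large subunit of U2AF and a coactivator of transcription, had Pol2S2P levels of 7.99, 8.21 and 8.22, against H3K27ac levels of 2.87, 2.62 and 3.17 (1.495 ± 0.114). The libraries of each target agreed closely in Hnrnpc and Rbm39 and were more spread in Hnrnpab, which held 152 Pol2S2P counts there in all.

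Srsf1 and Hnrnpl were the 2 genes tested that did not pass. Srsf1, the SR protein known as a splicing factor that can transform cells, had interior Pol2S2P levels of 13.0, 16.1 and 10.8, against H3K27ac levels of 8.94, 14.5 and 9.36 (log2 fold change 0.28 ± 0.21 SE, adjusted p = 0.285486 by edgeR's quasi-likelihood test), and the sign turned with TMM and DESeq2 scaling. Its H3K27ac level (10.9 ± 3.11, SD, n = 3) was well above the median of 2.82 for splicing factor genes. Hnrnpl, which binds CA repeats, had Pol2S2P levels of 4.25, 3.61 and 3.51, against H3K27ac levels of 2.98, 4.17 and 1.91 (0.33 ± 0.23, adjusted p = 0.238202 by the same test). In both genes the libraries of the targets overlapped. The listed start of Hnrnpl lies 2.34 kb inside its span, so its interior takes in start bins. Counted only over 2 kb downstream of its listed start, Srsf1 had mean levels of 12.5 ± 3.59 for Pol2S2P and 10.3 ± 1.91 for H3K27ac (SD, n = 3). Mean H3K4me3 in those bins was 26.7 in 10000 cells. This was below the H3K4me3 level given above for the interior of Hnrnpa1, which was called higher for Pol2S2P. Whether H3K4me3 inside a gene bears on the call was not tested.

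In 100 cells, 27 of the 35 genes passed the filter, of which 22 were called higher for Pol2S2P over H3K27ac and 0 lower by edgeR's quasi-likelihood test, beside 28.5% higher and 9.04% lower among 9764 genes. Here too an interior could pass the filter through its Pol2S2P counts alone. Ptbp1, called higher, held 53 Pol2S2P counts and 17 H3K27ac counts in all. The median log2 fold change was 1.31 for the splicing factor genes and 0.31 over all genes tested. Sfpq was again first, with Pol2S2P levels of 10.4, 9.89 and 10.6, against H3K27ac levels of 1.94, 2.19 and 2.73 (2.18 ± 0.20 SE, adjusted p = 7.30792e-15 by edgeR's quasi-likelihood test). Tra2b had Pol2S2P levels of 10.6, 12.5 and 7.89, against H3K27ac levels of 3.92, 3.57 and 2.00 (1.70 ± 0.23). For both genes the targets did not overlap. Hnrnpd, which binds AU-rich elements of short-lived mRNAs, had Pol2S2P levels of 8.79, 8.63 and 8.85, against H3K27ac levels of 3.14, 2.81 and 2.02 (1.71 ± 0.23). Rbm39 had Pol2S2P levels of 9.99, 7.70 and 8.68, against H3K27ac levels of 3.03, 2.75 and 2.92 (1.60 ± 0.18). Hnrnpc had Pol2S2P levels of 5.38, 6.04 and 5.72, against H3K27ac levels of 1.79, 2.03 and 2.01 (1.56 ± 0.23). In all 3 the targets did not overlap. Srsf1, Srsf4, Srsf10, Hnrnph1 and Hnrnpl did not pass (0.21 to 0.85), and the sign of Srsf10 turned with TMM and DESeq2 scaling, which called 16 and 11 higher against 13.0% and 8.09% of all genes. The difference between targets did not itself differ between 1000 and 100 cells at any of the 30 genes tested (interaction term in edgeR's quasi-likelihood test, 0 called with and without TMM, 1 at an unadjusted p under 0.05, background 0.0% in each direction of 12433 genes).

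Other genes of the splicing machinery were counted from lists in the same comparison of interiors in 1000 cells. Over all genes tested there, 38.1% were called higher and 9.92% lower. Of 40 core spliceosome genes, 31 were tested and 25 called higher for Pol2S2P, 0 lower (median log2 fold change 0.93), with Snrnp70 of the U1 particle (1.88 ± 0.26 SE) and U2af1, the small subunit of the factor that binds the end of the intron (1.58 ± 0.28), as the largest. Of 9 kinases of SR proteins, 7 of 8 tested were called higher, led by Prpf4b (1.34 ± 0.18) and Srpk1 (1.21 ± 0.15). Among 10 splicing regulators of muscle, 9 were tested. Qk (0.99 ± 0.07) and Celf1 (0.97 ± 0.09) led 3 called higher, while Mbnl3 (-0.46 ± 0.11) and Rbm20 (-0.24 ± 0.06), a regulator of titin splicing, led 3 called lower. Of 17 regulators of other tissues, 16 were tested, with 2 called higher (Celf3 at 0.92 ± 0.27 and Ptbp2 at 0.67 ± 0.11) and 1 lower (Celf4 at -0.61 ± 0.09). At starts in 10000 cells, H3K4me3 over CTCF was called higher in 85.0% of all genes tested and in 40 of 40 core spliceosome genes (Sf3b3 at 3.25 ± 0.16 and Cdc5l at 3.11 ± 0.19 the largest). The same call was made for 8 of the 8 kinases tested (Clk1 at 3.10 ± 0.20 and Srpk1 at 2.67 ± 0.21), 6 of 7 muscle regulators tested (Mbnl2 at 2.68 ± 0.14 and Mbnl1 at 2.50 ± 0.14) and 2 of 4 regulators of other tissues tested (Ptbp2 at 2.82 ± 0.18 and Khdrbs3 at 1.48 ± 0.42).

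At the starts of the same genes, Pol2S2P and H3K27ac had close levels in 1000 cells, with medians over the 35 genes of 4.88 for Pol2S2P and 4.37 for H3K27ac, against 1.58 and 1.47 over coding genes. Of 34 genes tested (Tra2a fell below the filter), 1 was called higher for Pol2S2P and 0 lower by edgeR's quasi-likelihood test, beside 5.88% higher and 12.5% lower among 7428 genes. At an unadjusted p under 0.05 there were 5. Log2 fold changes ran from -0.71 (Srsf10) to 1.28, with a median of 0.18 against -0.10 over all genes. TMM scaling, which moved that median to 0.01, called 5 higher, beside 7.71% of all genes.

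The gene called higher was Matr3, whose protein is a component of the nuclear matrix. It had Pol2S2P levels of 21.4, 27.5 and 23.2 at the span end used as its start, against H3K27ac levels of 11.2, 11.9 and 6.34 (log2 fold change 1.28 ± 0.19 SE, adjusted p = 4.15074e-09 by edgeR's quasi-likelihood test). The targets did not overlap. The same end was the 1 call among 16 genes tested in 100 cells (1.08; 8 of the 16 values were positive, and 15 with TMM or DESeq2), beside 5.24% higher and 21.8% lower among 1602 genes. That call was lost without Pol2S2P replicate 3, H3K27ac replicate 1 or H3K27ac replicate 2 (adjusted p of 0.130, 0.0790 and 0.0758 by edgeR's quasi-likelihood test), which left 0 calls. For Matr3 no start is listed, and Pol2S2P was higher at this end than at the opposite one in 1000 cells, 24.0 ± 3.12 against 10.1 ± 3.86 (SD, n = 3).

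At far ends, a comparison added after the data were seen, Pol2S2P exceeded H3K27ac in 30 of the 30 splicing factor genes that passed the filter in 1000 cells, beside 45.4% higher and 7.05% lower among 3986 genes. Hnrnpc, Tra2a, Srrm1, Srsf4 and Hnrnph2 fell below the filter, at mean far-end Pol2S2P levels of 2.28 to 4.38. A far end could pass the filter through its Pol2S2P counts alone, so the count leaves out ends low in both targets. The median log2 fold change was 1.82 (0.86 to 2.74) for the splicing factor genes and 0.74 over all genes tested. Nono had far-end Pol2S2P levels of 5.53, 4.72 and 5.80, against H3K27ac levels of 0.279, 1.16 and 0.905 (2.74 ± 0.46 SE). This was the largest difference, although its H3K27ac levels rested on few counts. Srrm2, which encodes a scaffold protein of nuclear speckles, had Pol2S2P levels of 8.90, 11.4 and 8.70, against H3K27ac levels of 2.24, 2.03 and 1.21 (2.37 ± 0.34). In neither gene did the targets overlap, and the far-end bins of both also cover another coding gene (Itgb1bp2 and Elob). At its listed start, Srrm2 had Pol2S2P levels of 3.85, 1.94 and 4.48, against H3K27ac levels of 3.07, 4.36 and 2.72 (0.03 ± 0.37), so that the H3K27ac range lay inside that of Pol2S2P. In 100 cells, 12 of 16 far ends tested were called higher, beside 46.3% higher and 12.4% lower among all genes tested.

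**Figure D4:**
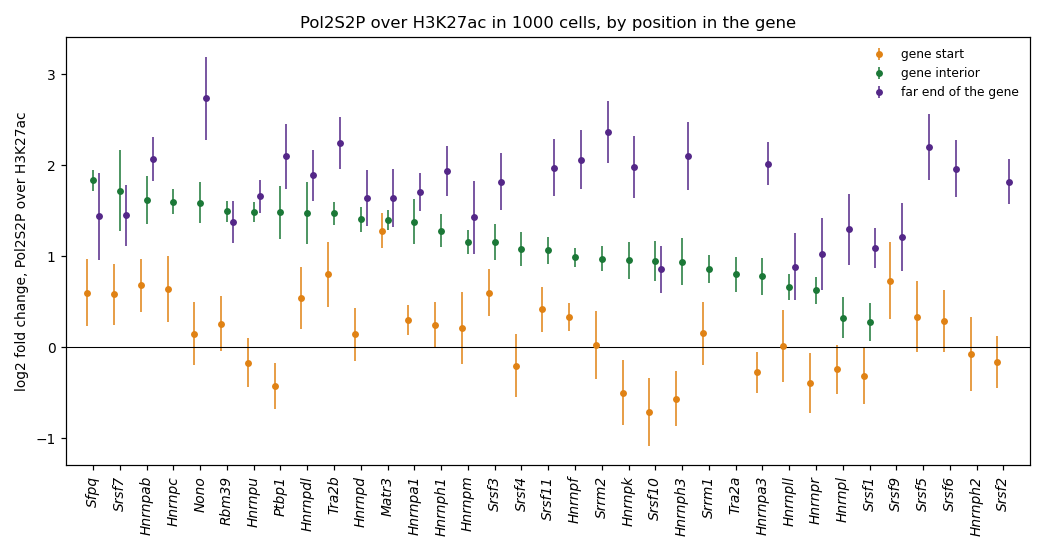
Log2 fold change of Pol2S2P over H3K27ac in dual libraries of 1000 cells (y axis, points with standard errors) at the start, in the interior and at the far end of each splicing factor gene tested there, ordered by the interior value. Starts scatter around 0 with Matr3 at 1.28, interiors run from 0.28 to 1.84, and far ends from 0.86 to 2.74.

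Over the whole span with 2 kb on either side, Pol2S2P exceeded H3K27ac at 34 of 35 genes in 1000 cells by edgeR's quasi-likelihood test, beside 37.3% higher and 10.5% lower among 17345 genes. Hnrnpl did not pass (log2 fold change 0.16).

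Within Pol2S2P libraries, the far end of the gene carried more signal than the start in 27 of 35 splicing factor genes in 1000 cells with counts summed over libraries (77.1%), against 38.8% of 14632 coding genes with at least 20 counts at both together. In 22 of the 35 the far end was higher in each of the 3 libraries, and in 2 it was lower in each. The share was 74.3% against 38.2% in 100 cells, and 21 of 35 genes against 25.5% with single staining. For H3K27ac in 1000 cells it was 14.3% against 18.5%, and for H3K4me3 in 10000 cells it was 0 of 35 against 9.5% of coding genes. Coding genes without a listed start were oriented by H3K27ac counts. The H3K27ac share over coding genes was therefore partly set in advance, and the other shares over coding genes may lean likewise. Hnrnpu had far-end Pol2S2P levels of 27.2, 31.9 and 34.0 (31.0 ± 3.49, SD, n = 3), against start levels of 5.53, 8.33 and 7.64 (7.17 ± 1.46), a ratio of means of 4.33. Its far-end bins also cover Cox20. Srsf10 and Srsf1 followed with ratios of 3.83 and 3.63, while Matr3 had the lowest, 0.421.

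**Figure D5:**
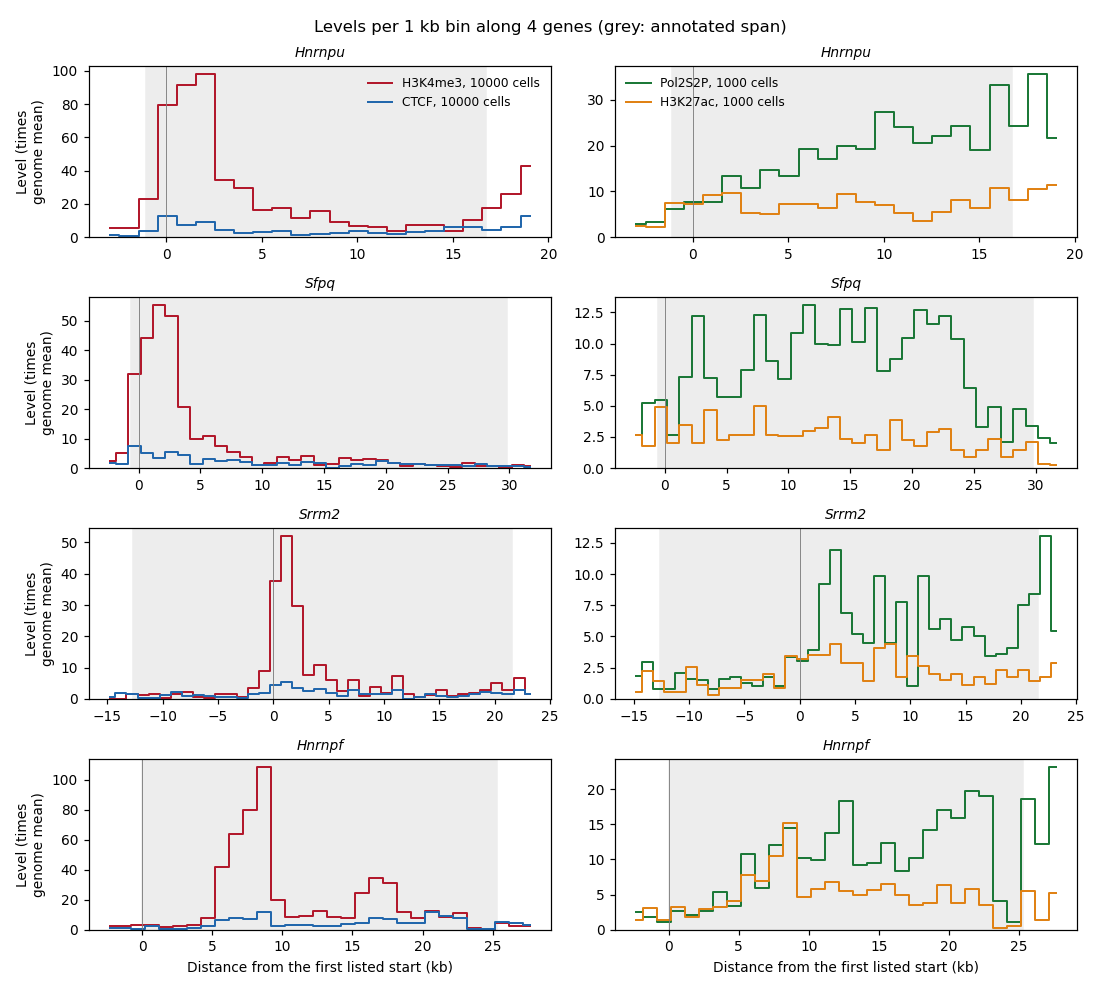
Mean level per 1 kb bin in multiples of the genome mean (linear y axis) by distance in kb from the first listed start (x axis, positive downstream) along Hnrnpu, Sfpq, Srrm2 and Hnrnpf, with H3K4me3 and CTCF in 10000 cells on the left, Pol2S2P and H3K27ac in 1000 cells on the right, and the annotated span in grey. Hnrnpu shows Pol2S2P climbing to its far end (31.0 against 7.17 at the start), and Hnrnpf shows H3K4me3 at the second, the third and the fourth start but at 2.87 at the first. The listed start of Srrm2 lies 12.66 kb inside its span, where H3K4me3 stood at 32.8.

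CTCF was also found away from starts. Over the spans with 2 kb on either side, starts left out, 11 bins in 6 genes had a mean CTCF level of at least 5 and above the mean H3K4me3 level, and they are described without a test because their values chose them. Of these bins, 9 overlapped the span and 2 lay in the flank. A bin in the downstream flank of Srsf1, at chr11:88054646-88055645 had CTCF levels of 18.1, 15.1 and 14.9 in dual libraries, against 15.8 and 19.8 with single staining. A bin of Hnrnpll at chr17:80047676-80048675 had 19.1, 15.1 and 12.3 with dual staining, against 11.2 and 13.4 with single staining. A bin of Tra2a, at chr6:49246801-49247800, had 17.0, 12.6 and 16.2 with dual staining, against 14.8 and 10.3 with single staining. Mean H3K4me3 levels in these bins were 8.33, 6.17 and 6.18, below CTCF because the rule required it. The dual and single libraries covered overlapping ranges. The remaining bins lay in Srsf1, Tra2a, Hnrnpf, Hnrnpll and Hnrnpu and in the flank of Hnrnpa1, at mean CTCF levels of 5.17 to 10.9.

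Dual libraries were also set against single libraries of the same target. These are separate samples, so an effect of the second antibody cannot be told apart from other differences between them, for CTCF or for Pol2S2P. CTCF at starts, in 10000 cells, differed at 0 of 35 splicing factor genes by edgeR's quasi-likelihood test (5 at an unadjusted p under 0.05, 0 by TMM and by DESeq2, which turned the sign of 6), beside 0.0622% higher and 0.0% lower among 12853 genes. Tra2b had CTCF levels of 6.56, 8.70 and 6.69 with dual staining, against 4.76 and 4.09 with single staining, the largest difference (log2 fold change 0.75 ± 0.23 SE, adjusted p = 0.149309 by edgeR's quasi-likelihood test). Values ran from -0.31 to 0.75 with a median of 0.20, against 0.08 over all genes.

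Pol2S2P in interiors was lower with dual than with single staining in 17 of 31 splicing factor genes tested, and higher in 0, by edgeR's quasi-likelihood test. The background was 15.2% lower and 10.9% higher among 13314 genes, and the median log2 fold change was -0.44 for the splicing factor genes and -0.07 over all genes. Without replicate 1 of the single staining, 8 were called lower, and DESeq2 called 8 against 4.27% of all genes. These are the same dual libraries that were set against H3K27ac above. Hnrnpll and Matr3 turned sign with another scaling, at log2 fold changes of -0.05 and -0.01.

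Hnrnpl had interior Pol2S2P levels of 4.25, 3.61 and 3.51 with dual staining, against 7.21 and 7.32 with single staining (log2 fold change -0.93 ± 0.21 SE, adjusted p = 0.000220016 by edgeR's quasi-likelihood test). Rbm39 had 7.99, 8.21 and 8.22 with dual staining, against 12.6 and 13.5 with single staining (-0.68 ± 0.09, adjusted p = 1.4356e-10 by the same test). In both genes all dual libraries lay below both single libraries. Ptbp1, the polypyrimidine tract protein that represses exons of neurons and muscle, had 5.49, 7.50 and 5.69 with dual staining, against 13.9 and 8.85 with single staining (-0.91 ± 0.22). Hnrnpdl had 10.5, 9.58 and 14.2 with dual staining, against 21.3 and 21.0 with single staining (-0.89 ± 0.25). Nono had 3.08, 3.22 and 4.43 with dual staining, against 6.46 and 4.96 with single staining (-0.70 ± 0.18). The stainings did not overlap in these 3 genes, but without replicate 1 of the single staining the adjusted p by edgeR's quasi-likelihood test were 0.271 for Ptbp1, 0.0530 for Hnrnpdl and 0.195 for Nono.

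Starts were set side by side in the same way, in a comparison added after the data were seen. Pol2S2P at starts was lower with dual staining at 34 of 35 splicing factor genes, beside 65.3% lower and 0.306% higher among 10458 genes, with a median log2 fold change of -1.21 against -0.98 over all genes. Hnrnpk had start levels of 2.65, 3.89 and 3.16 with dual staining, against 11.9 and 13.3 with single staining (-1.96 ± 0.31 SE), with no overlap. Sfpq did not pass, at 3.85, 4.44 and 5.01 with dual staining, against 8.95 and 4.68 with single staining (-0.68 ± 0.34, adjusted p = 0.0679499 by edgeR's quasi-likelihood test). At far ends 17 of 35 were lower, beside 23.8% lower and 0.274% higher among all genes tested, with a median of -0.67 against -0.57. The difference between positions was not itself tested.

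Pol2S2P in interiors, in 1000 over 100 cells, changed in 0 of 30 splicing factor genes tested by edgeR's quasi-likelihood test (3 at an unadjusted p under 0.05, 0 by TMM and by DESeq2), beside 0.00828% of 12075 genes in each direction. Log2 fold changes ran from -0.38 to 0.65. The 100-cell libraries held 1255432 to 1580089 counts and the 1000-cell libraries 3159793 to 3645778, so smaller changes may not have been detectable at this depth.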

How the data were processed

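Members and lists were chosen with earlier results of these data known. The deposited table holds raw counts for 1 kb bins. Per the submitters' processing notes, bcl2fastq, HISAT2 2.1.0, deepTools 3.3.1 and the build GRCm38 were used. Sources used here do not state how duplicates, multiply mapped reads or antibody barcodes were handled. Of 32 columns, 28 matched a sample by name and 4 were not used; 6 labelled samples were not analysed here. Bins on autosomes and X were kept, less 9 bins over 50 times the mean in every group, and their sum was the library size (719766 to 6653298 counts). Listed starts came from the RefSeq promoter table of GRCm38.p6, which covers 17274 of 21631 coding genes.

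Counts summed over each feature were tested over all coding genes with edgeR 4.0.16 (quasi-likelihood, filterByExpr, library sizes unscaled; R 4.3.3). Adjustment was by Benjamini-Hochberg at 0.05, with only the compared groups in a fit; a member's call is its call in that fit. The scripts were tested on simulated data. Alternatives were TMM, DESeq2 1.42.0, no filter, other windows, a replicate block and leaving out each library. Members given in full were the 5 with the largest change in each direction among those called, without overlap and with at least 20 counts in each library of the higher group, and the 3 highest and 3 lowest by level. For Pol2S2P and H3K27ac the same-numbered libraries come from 1 dual staining, and their deviations correlated over 0.1 in every pair for interiors (0.116 to 0.127 in 1000 cells, 0.113 to 0.125 in 100 cells), whole windows (0.115 to 0.122) and starts in 100 cells (0.132 to 0.162). Intervals are not given for levels; replicate SDs are. Figures were drawn with matplotlib 3.10.9 from tables made with pandas 2.3.3 in Python 3.11.15.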

Additional observations from a re-analysis of the deposited data

How the results depend on the processing

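No set of calls among the splicing factor genes turned direction under the alternatives run, although with TMM and with DESeq2 the sign turned at 16 of 35 starts for H3K4me3 in 10000 over 1000 cells (median -0.19 and -0.18, against 0.03) and at 7 of 16 for Pol2S2P over H3K27ac in 100 cells, without a change in calls. In all, 167 of 189 alternative counts or medians stayed close to the reported ones (within 1.5 times for counts). For H3K4me3 over CTCF at starts in 1000 cells, DESeq2 called 20 of 35. For Pol2S2P over H3K27ac in interiors in 100 cells, DESeq2 called 11 of 27. For Pol2S2P over H3K27ac at starts in 1000 cells, where 1 was called, TMM called 5, a window of 2 kb on either side 10, both gene ends together 25, the end chosen by counts of another target 4, and the far end 30. In 100 cells the same comparison gave 0 with no filter, 2 with the wider window, 13 with both ends, 3 with the chosen end and 12 at the far end. Leaving out 1 library gave 1 to 2 calls in 1000 cells and 0 to 1 in 100 cells. For Pol2S2P dual over single staining in interiors, DESeq2 called 8, starts in place of interiors gave 34, and leaving out 1 library gave 8 to 17. The chosen end, the far end, and starts or far ends in place of interiors were added after the data were seen. By construction, wider windows and both ends take in bins outside the start; otherwise the cause was not tested. The median H3K4me3 level at starts was 37.5 without genes that share start bins with a coding gene, and 37.2 without those that share them with any gene (an alternative added after the data were seen). Of 408 alternative values for single genes, 396 kept their direction and side of the threshold and 12 lost the call. With the replicate number as a block, the counts were 35 for H3K4me3 over CTCF in both cell numbers, 28 and 22 for Pol2S2P over H3K27ac in interiors, 34 over whole windows, 1 at starts, and 16 for Pol2S2P dual over single staining, so the replicate block changed no count of calls by over 1.5 times. For H3K4me3 and CTCF the same-numbered libraries correlated at 0.035 to 0.074, and for Pol2S2P and H3K27ac at starts in 1000 cells at 0.069 to 0.083, below 0.1.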
